A study of Danio rerio with 4 samples.

Results

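The cytosolic ribosomal protein genes were taken by symbol: names beginning with rpl, rps or rplp followed by a digit, leaving out the S6 kinases that begin with rps6k. This gave 82 genes of 19924 measured features, 48 of the large subunit (rpl and rplp) and 34 of the small subunit (rps). They were measured by poly(A) RNA-seq in zebrafish (Danio rerio) at 3 days post fertilization, in tissue left after the head was taken for genotyping, which the labels call tails. All fish came from 1 pair heterozygous for cpa1 and cpa5, which code for digestive carboxypeptidases. There were 2 libraries of siblings, labelled WT and numbered replicates 3 and 4, and 2 libraries of cpa1 and cpa5 double knockouts with the same numbers. The parents' cross can give heterozygous siblings, and the labels do not say whether the controls were. Neither do they say how many fish a library holds or what the replicate number stands for, and a p-value here reflects no more than how far these 4 libraries spread, which may be technical.

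A ribosome is built from ribosomal RNA and many small proteins, most of them present once in each subunit, with stalk proteins of the large subunit among the exceptions. The large subunit joins amino acids and the small subunit reads the mRNA. In vertebrates the messages of these proteins are abundant, short, and share a pyrimidine-rich start through which mTOR signalling sets how much of them is translated. Some of the proteins, among them those encoded by rpl5 and rpl11, also bind Mdm2 when ribosome assembly is disturbed.

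Total counts were 24769258 to 35343524 per library. The mutated gene cpa5 had 2079 counts in sibling replicate 3 and 397 in sibling replicate 4, against 19 in knockout replicate 3 and 15 in knockout replicate 4, and cpa1 was not analysed here. All 15 skeletal muscle markers and all 10 epidermis markers were detected, 0 of 12 lens and retina markers were among the features, and 6 forebrain genes summed to between 20.1 and 30.9 CPM (the counts of a gene relative to its library's total, adjusted by TMM factors). Organ markers differed between libraries. The 13 exocrine pancreas genes summed to 1178 and 138 CPM in siblings 3 and 4 and to 435 and 109 CPM in the knockouts, and the 11 hepatocyte genes to 4326, 7271, 2613 and 5075 CPM in that order. The epidermis markers summed to 26779, 38419, 23778 and 35651 CPM in the same order, higher in both replicate 4 libraries. The skeletal muscle markers summed to 124257, 136931, 126375 and 143552 CPM. The part of all these markers in the results that follow was not tested. In bulk tissue fewer cells of a type and less RNA per cell cannot be told apart.

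The symbol rule and the protein family were not quite the same. The deposited annotation put 77 of the 82 genes in the ribosome pathway. Of the 5 outside it, rps19bp1 codes for a protein that binds Rps19 and rpl7l1 for a relative of Rpl7, neither known as a subunit of the mature ribosome. The row named rpl37 (ENSDARG00000076360) is described in the deposited annotation as a cytochrome c oxidase assembly factor, while rpl37.2 (ENSDARG00000034291) has the symbol RPL37 in a separate gene-name table. The last of the 5, rps27l, is a close relative of rps27. A further 5 ribosomal protein genes carry other names and stand outside the count, among them zgc:171772 (L37a), faua and rpsa. No feature named rpl27a or rps20 was among the 82, and these genes were not analysed here.

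These genes were among the most abundant messages of the tissue. By deposited FPKM (fragments relative to the length of the feature and the size of the library), the median of the 82 was 688, against 3.2 for all features and 16.6 for the 74 mitochondrial ribosomal protein genes. The large and small subunit had median FPKM of 682 and 692, and 52 of the 82 genes lay between 500 and 1500. The highest small subunit gene was rps2, with FPKM of 2085 and 2069 in siblings 3 and 4 against 2022 and 2089 in knockouts 3 and 4. The highest large subunit gene was rpl7a, at FPKM 1919, 1969, 2028 and 1880 in the same order. In both genes the groups overlapped.

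Next in mean FPKM among the large subunit genes were rplp0, the base of the stalk, at 1825, rpl3, whose protein reaches towards the peptidyl transferase centre, at 1444, rpl8 at 1288 and rpl7 at 1281. Among the small subunit genes rps6, the substrate of S6 kinase, had a mean FPKM of 1185, rps4x and rps7 had 1145 each, and rps14 had 1090. At the other end, 5 genes were under FPKM 100. They were rps8b (6.22), rps19bp1 (6.81), the row named rpl37 (7.78), rpl7l1 (28) and rps27l (36.1), so the members that are not ribosome subunits and the minor paralogues made up the bottom. The next lowest of the large subunit were rpl32 at 104, rpl35a at 120 and rpl10 at 140, and of the small subunit rps26l at 230 and rps3 at 271. For rpl35a and rps3 the length implied by counts over FPKM was 3937 and 4297 bases against a median of 867 for the 82 genes, and a long assigned length lowers FPKM for a given count.

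**Figure D1:**
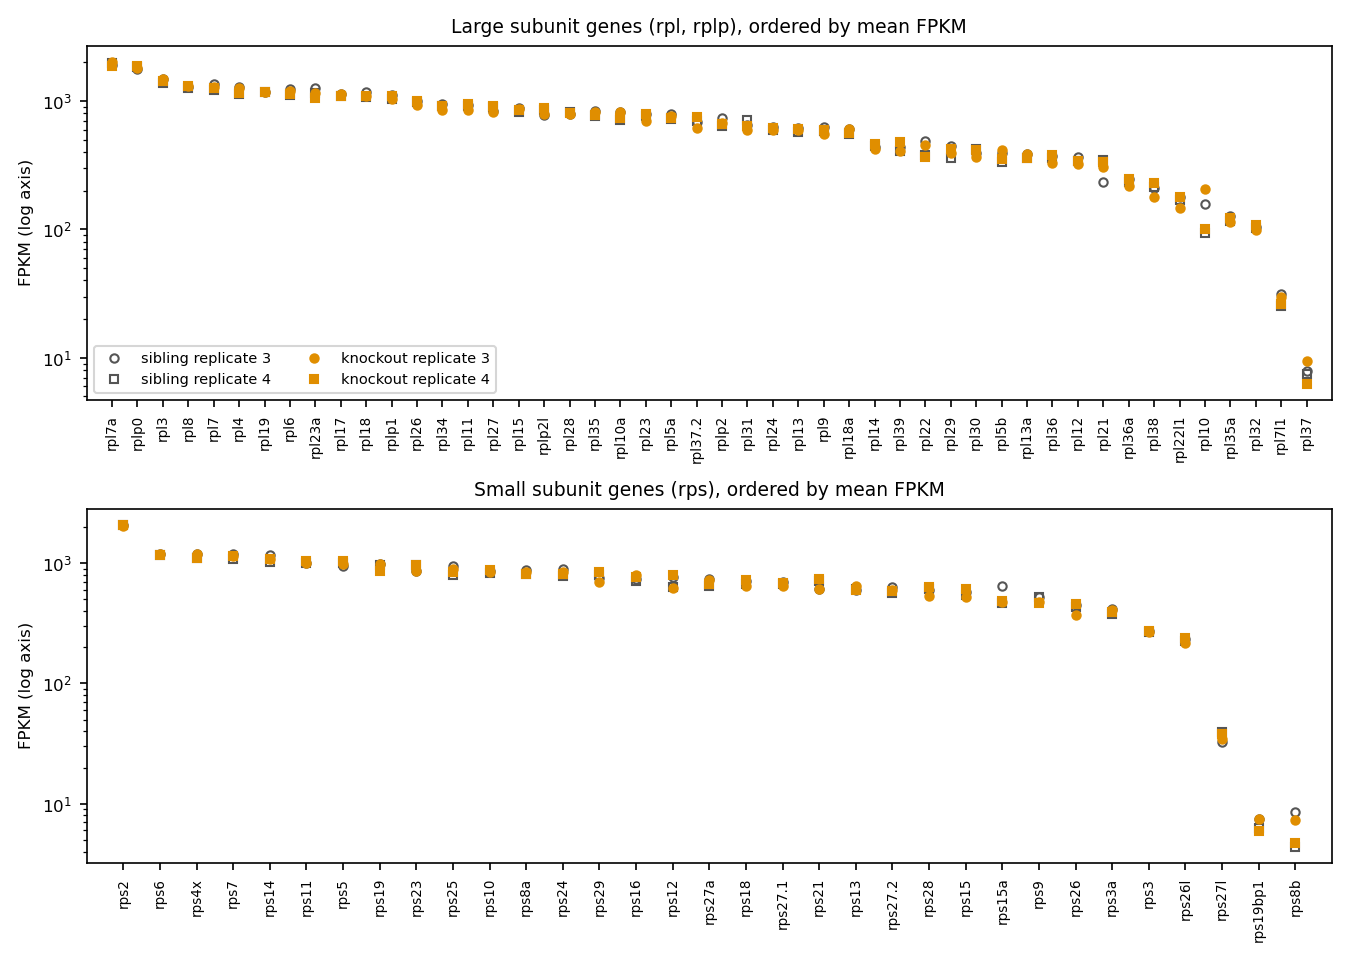
Deposited FPKM (log axis) of each ribosomal protein gene in the 4 libraries, 81 of the 82 drawn, large subunit above and small subunit below, ordered by mean FPKM. Most genes lie between 500 and 1500, their 4 points nearly overlap, and 5 genes lie under 100, while rpl10 and rps8b show the replicate 3 libraries (circles) above the replicate 4 libraries (squares).

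As a class the 82 genes took 5.636% of all counts in sibling replicate 3 (95% Wilson interval 5.627 to 5.645), 5.457% in sibling replicate 4 (5.449 to 5.465), 5.356% in knockout replicate 3 (5.347 to 5.365) and 5.630% in knockout replicate 4 (5.623 to 5.638). These intervals cover counting error only. Knockout replicate 3 had the lowest share and sibling replicate 3 the highest, and the groups overlapped. The mitochondrially encoded genes, by comparison, took 4.934%, 3.010%, 4.780% and 3.200% of counts, so their share followed the replicate number. Mitochondrial ribosomal protein genes, which are nuclear, took 0.146% to 0.162%.

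In CPM the summed level was 56305 and 55837 in sibling replicates 3 and 4, and 51161 and 57665 in knockout replicates 3 and 4. The siblings averaged 56071 ± 331 (SD, n = 2) and the knockouts 54413 ± 4599 (SD, n = 2), a log2 difference of -0.05 (exact permutation test, two-sided, p = 1, where 2 against 2 cannot go below 0.333). On this scale knockout replicate 3 was the low library and knockout replicate 4 the high one. With total counts knockout replicate 3 was still lowest but sibling replicate 3 highest (56359 against 56303 in knockout replicate 4), and summed FPKM was 59704, 57098, 57518 and 58443, with the siblings at both ends. Without knockout replicate 3 the difference was 0.04. The large subunit summed to 34933, 34684, 31842 and 35693 CPM, and the small subunit to 21372, 21152, 19318 and 21972 CPM, with the same order of libraries and a log2 difference of -0.05 each (exact permutation test, p = 1).

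The balance of the subunits was close in all 4 libraries. The ratio of summed large to summed small subunit CPM was 1.635 and 1.640 in the siblings and 1.648 and 1.624 in the knockouts, with means of 1.637 ± 0.00369 and 1.636 ± 0.0169 (SD, n = 2). The log2 difference was -0.001 (exact permutation test, two-sided, p = 1). Its sign changed with the library left out, over a range of -0.011 to 0.010, and it was -0.013 without the 5 highest genes of each subunit. By summed FPKM the ratio was 1.434, 1.443, 1.451 and 1.421, with the same order of libraries.

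**Figure D2:**
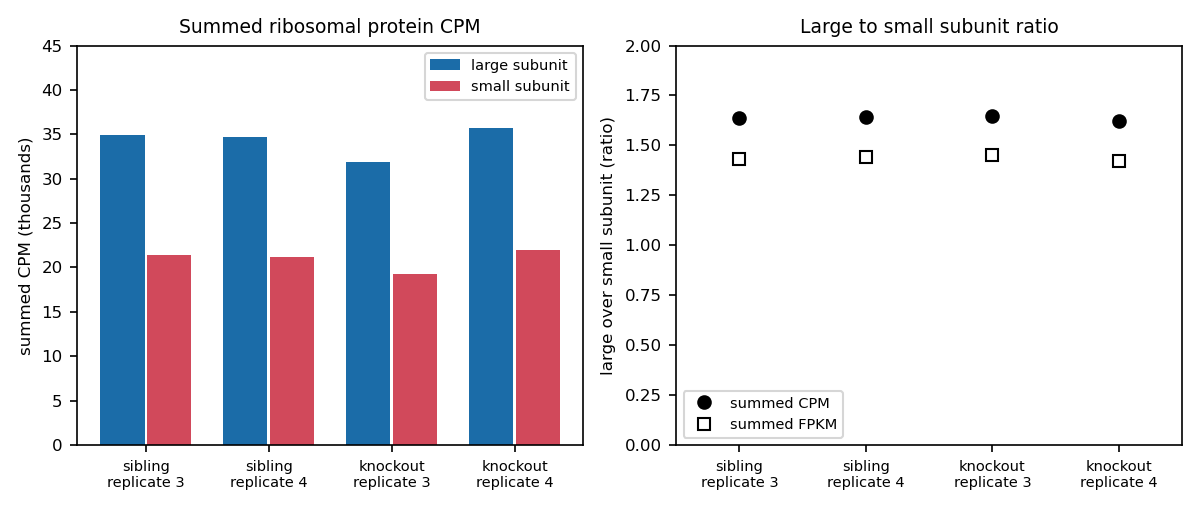
Left, summed CPM of the large and small subunit genes in each library (axis labels divided by 1000); right, the ratio of large to small subunit by summed CPM and by summed FPKM. Bars and points are single libraries; the large subunit lies at 31842 to 35693 CPM, the small at 19318 to 21972, and the CPM ratio at 1.624 to 1.648.

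The study's comparison, double knockout against sibling, gave no call in this class. With edgeR's quasi-likelihood test over all 19924 features and Benjamini-Hochberg adjustment, 0 of the 82 genes passed an adjusted p of 0.05, where 0% of all features did. At an unadjusted p under 0.05 there were also 0 of the 82, against 0.502% of features. This fit had no term for replicate number, so the spread between the numbers stayed in its error. With so few features passing at all, neither count of 0 is read as a result about these genes. DESeq2 called 19 features (0.0954%) and limma-voom 0, and neither called a ribosomal protein gene. In the authors' deposited table all 82 are marked as not significant, as are 19818 of all 19924 features. The smallest p of the 82 in that table was 0.453.

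The fitted log2 fold changes ran from -0.18 to 0.26 with a median of -0.05, beside a median of -0.01 over all features. They lay within 0.2 of 0 for 81 of 82 genes, with standard errors of 0.14 to 0.39 and a median of 0.16. The large subunit median was -0.05 and the small subunit median -0.04. The sign was negative for 45 of 48 large and 31 of 34 small subunit genes, and for 10389 of all 19924 features. This side of 0 rested on knockout replicate 3: without it the median of the class was 0.04, without knockout replicate 4 it was -0.13, and it was -0.02 with total counts and -0.01 by limma on log2(FPKM + 1). Both knockout libraries lay below both siblings in 2 genes, rps4x and rps9, against 9.01% of all features, and above both siblings in 0, against 8.72%.

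The gene with the smallest p was rpl31, which codes for a protein near the mouth of the exit tunnel. Its level was 892 and 1005 CPM in the siblings and 771 and 907 CPM in the knockouts. The log2 fold change was -0.18 ± 0.17 (SE), with an adjusted p of 1 by edgeR. Knockout replicate 4 lay above sibling replicate 3, so the groups overlapped. For rps9, of the small subunit, the levels were 731 and 713 CPM in siblings and 643 and 678 CPM in knockouts, without overlap (log2 fold change -0.13 ± 0.15, edgeR adjusted p = 1).

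The fold change furthest from 0 belonged to rpl10, whose protein joins the large subunit late, near the catalytic centre. The siblings 3 and 4 had 152 and 101 CPM, and the knockouts 3 and 4 had 194 and 110 CPM. Both replicate 3 libraries were above both replicate 4 libraries, and the genotypes overlapped (log2 fold change 0.26 ± 0.37, edgeR adjusted p = 1). Without knockout replicate 3 its value was -0.21. The remaining genes with the smallest p or the largest fold change, rpl12, rpl21, rpl22l1, rpl34, rps8a, rps8b, rps19bp1, rps26, rps27.1 and rps27.2, had log2 fold changes between -0.15 and -0.07, all with an edgeR adjusted p of 1.

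Within the replicate numbers the class shifted in opposite directions. Among replicate 3 libraries the knockout had a lower CPM than the sibling in 79 of 82 genes, against 51.8% of all features, with a median log2 difference of -0.15. Among replicate 4 libraries the knockout was higher in 72 of 82, against 50% of all features, with a median of 0.05. Both held together, lower in replicate 3 and higher in replicate 4, for 71 genes (42 large, 29 small), against 25.4% of features. The signs were not particular to this class. Medians in replicates 3 and 4 were -0.10 and 0.02 for the translation factors described below and -0.07 and 0.01 for the ribosome biogenesis factors. The mitochondrial ribosomal protein genes had -0.07 and 0.03. The mTOR and S6 kinase list was lower in both, at -0.12 and -0.01. These are differences between single libraries with no replicate, and genes of 1 library share its scaling and depth.

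An example is rps12, a small subunit gene, with 478 and 430 CPM in siblings 3 and 4 against 374 and 540 CPM in knockouts 3 and 4. The knockouts were the lowest and the highest of the 4 libraries, 0.35 below and 0.33 above their numbered siblings on the log2 scale. For rpl38, of the large subunit, the levels were 183, 200, 150 and 220 CPM in the same order, again with the knockouts at both ends. There were 8 genes lower in the knockout in both numbers, namely rpl21, rpl28, rpl30, rpl31, rps4x, rps9, rps19bp1 and rps27l. In rpl10 alone of the 82 the knockout was higher in both, by 0.35 and 0.12. Over all features 51.8% were lower within replicate 3, and 25.4% were lower there but higher within replicate 4. The shares of features lower or higher in both were not computed, so neither count is read as a result about these genes.

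**Figure D3:**
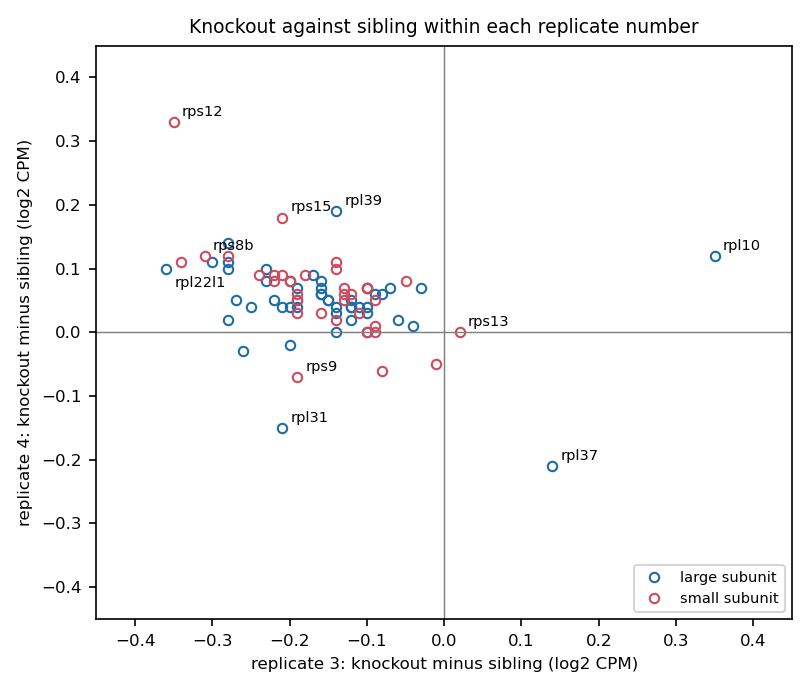
Each point is 1 gene: the log2 CPM difference of knockout minus sibling in replicate 3 (horizontal) against that in replicate 4 (vertical), large subunit blue and small subunit red. Most points lie left of 0 and above 0; rpl10 is positive on both axes and rpl31 and rps9 are negative on both.

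Knockout replicate 3 was the lowest library in 72 of the 82 genes, against 27.4% of features, and knockout replicate 4 the highest in 44, against 20.3%. Both counts depended on the scaling. With total counts in place of TMM knockout replicate 3 was lowest in 42 genes, and by deposited FPKM in 32, where sibling replicate 4 was lowest in 34. Knockout replicate 4 was highest in 35 and 26 genes on these scales, and sibling replicate 3 in 37 and 38. FPKM also depends on the implied length, which varied by over 10% between libraries in 8 of the 82 genes. For rpl21 that length was 1114 bases in sibling replicate 3 and 741 to 770 bases in the other libraries. The shares over all features were taken with TMM alone, so the counts on the other scales have no background beside them. The sign of the shift within replicate 3 was less affected: the knockout was lower in 79 genes with RLE size factors, 74 with total counts and 64 by FPKM, and the median was -0.15, -0.09 and -0.07, when that of all features was -0.01, 0.05 and 0.08. Knockout replicate 3 also had the highest TMM factor, 1.047, against 0.976 to 1.001 in the other libraries.

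**Figure D4:**
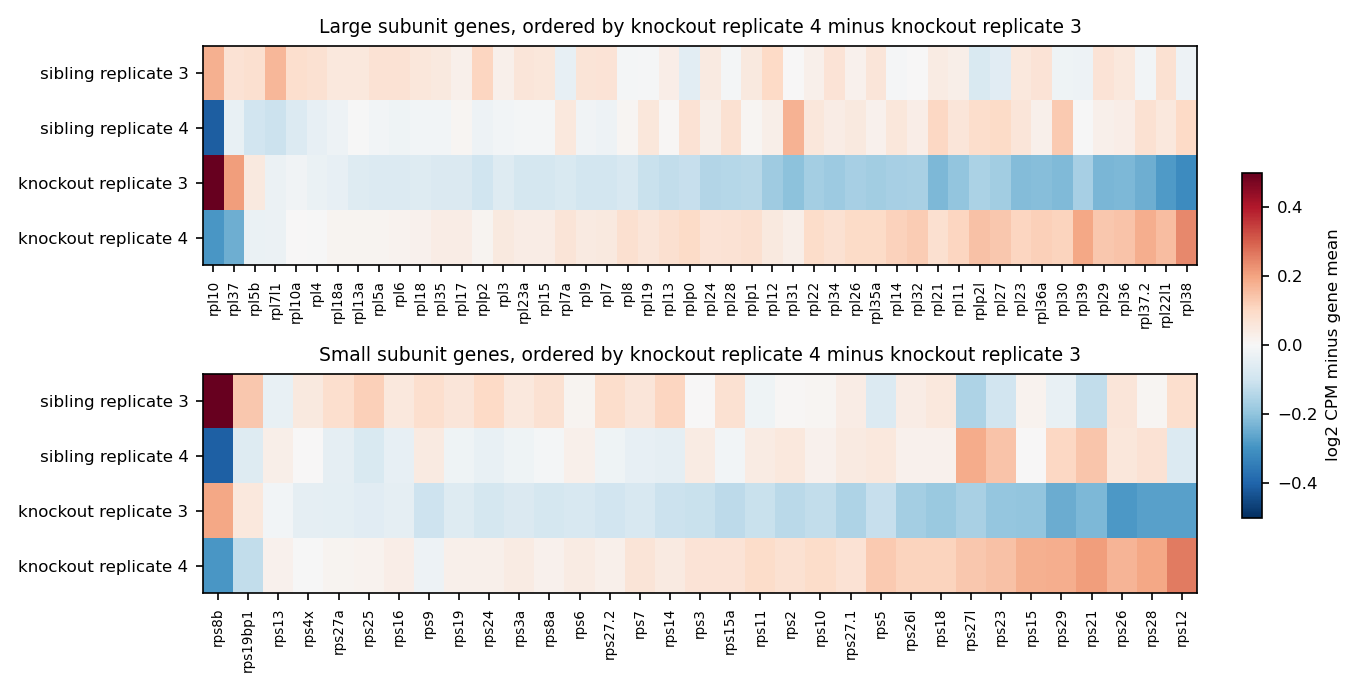
Log2 CPM of each gene minus its mean over the 4 libraries, 81 of the 82 drawn, large subunit above and small subunit below, ordered by knockout replicate 4 minus knockout replicate 3. Colours stop at 0.5 in either direction; blue fills most of the knockout replicate 3 row, and rpl10 and rps8b at the left stand apart, with both replicate 4 libraries low.

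The libraries also differed by replicate number, and few of the ribosomal protein genes passed that test. In the fit with genotype as a term, edgeR called 15.1% of all features between replicates 4 and 3, and 1 of the 82 genes (lower, as were 8.16% of features; 0 were higher, as were 6.99%). At an unadjusted p under 0.05 there were 6, where 34.5% of features passed. The median log2 difference of replicate 4 over 3 was 0.10 (large 0.11, small 0.06), beside 0.01 for all features. The median was 0.20 among the knockouts and -0.03 among the siblings. By limma on log2(FPKM + 1) the median of the class was -0.02, so its direction depended on the scale. All features moved too: their median difference of knockout replicate 4 over 3 was 0.00 with TMM, -0.10 with total counts and -0.15 by FPKM, where the class lay at 0.20, 0.10 and 0.03.

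The called gene was rpl10, lower in replicate 4 by -0.71 ± 0.10 on the log2 scale (edgeR adjusted p = 0.0203). It was lower by -0.59 among siblings and by -0.82 among knockouts. The call was lost without sibling replicate 4 (-0.66, adjusted p = 0.132) and without knockout replicate 4 (-0.78, adjusted p = 0.074), fits that have no genotype term. The minor paralogue rps8b went the same way, from 13.0 to 6.92 CPM in siblings and from 10.5 to 7.51 CPM in knockouts (log2 difference -0.69 ± 0.16, edgeR adjusted p = 0.0528). With RLE size factors, total counts, a minimum of 5 CPM, or without assembled models it did pass, with adjusted p from 0.0229 to 0.0498 by edgeR, and by DESeq2 it did not (0.153).

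The other genes with small p values were higher in replicate 4 and did not pass. For rps21, of the small subunit, the levels were 310 and 372 CPM in siblings and 289 and 390 CPM in knockouts, with both replicate 4 libraries above both replicate 3 libraries (log2 difference 0.35 ± 0.10, edgeR adjusted p = 0.0749). For rps23, whose protein sits at the decoding centre, they were 610, 719, 570 and 721 CPM, siblings before knockouts (0.29 ± 0.09, edgeR adjusted p = 0.0979). The log2 differences of rps27l, rps29, rpl38, rplp2l, rpl30 and rpl27 lay between 0.23 and 0.34, with edgeR adjusted p from 0.0914 to 0.164. Both replicate 4 libraries were above both replicate 3 libraries in 32 of the 82 genes, against 32.8% of features, a share near the background. They were below in 5, against 32.9%, and those were rpl10, rps8b, rpl5b, rps19bp1 and the row named rpl37.

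From library to library the class varied little. The ratio of the highest to the lowest library in CPM had a median of 1.16 over the 82 genes, and it was under 1.5 in 97.6% of them. Over all features the median was 1.44 and 56.4% were under 1.5. Among the other 2255 Ensembl genes with a mean of at least 50 CPM, which are closer in depth, the median was 1.3 and 70.6% were under 1.5. The steadiest was rps13, at 412 and 431 CPM in the siblings and 419 and 429 CPM in the knockouts, a ratio of 1.05. The most variable were rpl10 at 1.91 and rps8b at 1.88, the only members at 1.5 or more.

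Between the knockout libraries the difference varied with length. The 21 genes with the shortest implied length, up to 689 bases, had a median log2 difference of 0.30 for knockout replicate 4 over 3, and the 21 longest, from 1168 bases, had 0.11. Spearman's rho between length and that difference was -0.45 across the 82 genes, which share both libraries and are not independent. Across the siblings it was -0.22. Over all 2332 Ensembl genes with at least 50 CPM it was -0.11 and 0.02. The 29 other genes of at most 700 bases in that set had medians of -0.22 within replicate 3 and 0.13 within replicate 4 for knockout minus sibling, beside -0.18 and 0.08 for the 22 ribosomal protein genes of that length. The ribosomal protein genes over 1000 bases had -0.14 and 0.04, and the other genes over 1000 bases -0.02 and 0.01. For replicate 4 over 3 the short classes were less alike. Among knockouts the short ribosomal protein genes had a median of 0.30 and the other short genes 0.17, and among siblings -0.01 and -0.16. Over 1000 bases the medians were 0.11 and 0.04 among knockouts and -0.06 and 0.00 among siblings. The part of length in the shift of the class was not tested.

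**Figure D5:**
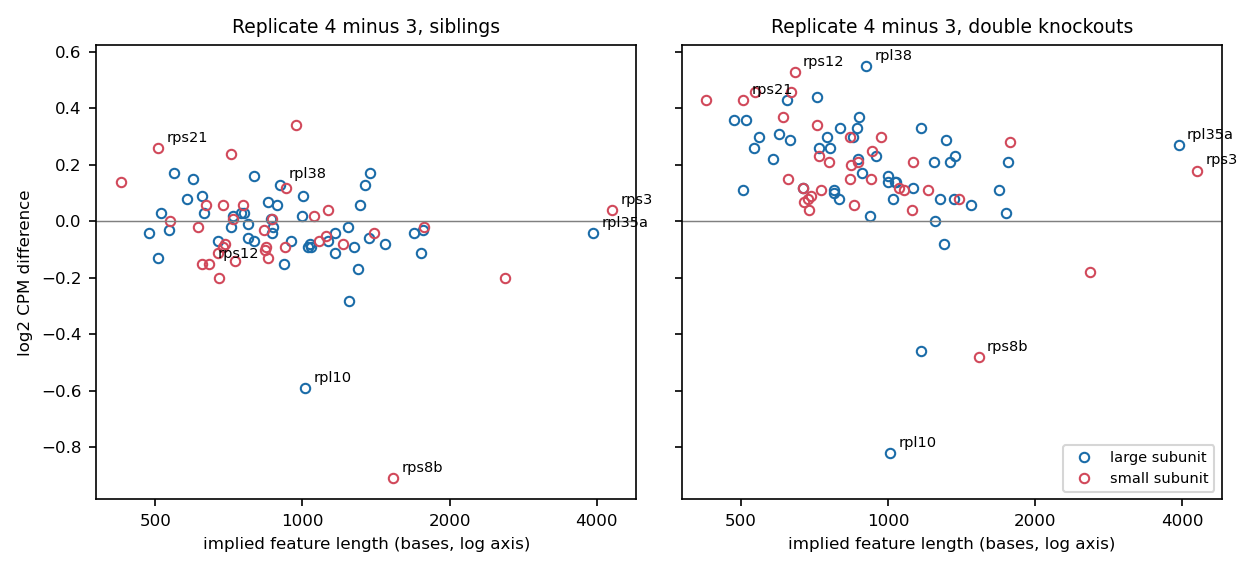
Log2 CPM difference of replicate 4 minus replicate 3 in siblings (left) and double knockouts (right) against the feature length implied by counts over FPKM (bases, log axis); each point is 1 gene. In the knockouts the 21 shortest genes have a median of 0.30 and the 21 longest 0.11, and rpl38, of middle length, lies highest, while in the siblings the points scatter around 0; rpl10 and rps8b are low in both.

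Several of the proteins are encoded by paired genes, and their shares of the pair were compared by FPKM. Reads of near-identical copies may be split or shared, and the way such reads were counted is not stated in the labels or headers. The gene rps8b made up 0.954%, 0.538%, 0.859% and 0.577% of the rps8a and rps8b pair, siblings 3 and 4 before knockouts 3 and 4, so rps8a carried nearly all of it. For rpl5b, paired with rpl5a, the shares were 33.2%, 31.9%, 34.9% and 32.4% in that order. In both pairs the genotypes overlapped.

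The stalk gene rplp2l made up 51.6%, 56.8%, 53.8% and 57.2% of its pair with rplp2, higher in both replicate 4 libraries. The copies rps27.1 and rps27.2 were close to even, with rps27.2 at 45.8% to 48%, and rps27l stayed at 4.48% to 5.58% beside rps27.1. For rps26l the share of its pair with rps26 was 34.1% to 36.9% by FPKM and 63.2% to 65.9% by counts, so which copy is the main one depends on the length assigned to each. The gene rpl22l1 made up 26.6%, 30.9%, 24.6% and 33% of its pair with rpl22 by FPKM but 26.1% to 28.6% by counts. The implied length of rpl22 changed between libraries from 644 to 896 bases, and the FPKM share changed with it. For all of these pairs the exact permutation test between genotypes gave p = 0.667 or 1.

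Genes that make, use or regulate ribosomes were read from lists by function. Of 100 measured ribosome biogenesis factors 0 passed between genotypes by edgeR, with a median log2 fold change of -0.04. Between replicate numbers 27 were lower in replicate 4 and 1 higher past the adjusted threshold, where 8.16% of features were lower and 6.99% higher. Their summed level was 3944 and 2917 CPM in the siblings and 3682 and 2948 CPM in the knockouts. The replicate 3 libraries were thus the high ones in both genotypes, while in the summed CPM of the 82 ribosomal protein genes knockout replicate 3 was the lowest library, and by summed FPKM sibling replicate 4 was. Nucleolin (ncl), a nucleolar protein, was at 420, 262, 431 and 263 CPM, a log2 difference of -0.69 ± 0.09 (edgeR adjusted p = 0.0148). The smallest genotype p of the list was that of rrp8, at 6.55 and 4.89 CPM in siblings and 4.78 and 3.83 CPM in knockouts (log2 fold change -0.41 ± 0.27, edgeR adjusted p = 1). Genes named for their difference between numbers, ncl here and eif4a2 in what follows, were chosen after their values were seen.

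The 54 measured genes listed as translation initiation and elongation factors followed the ribosomal protein genes more closely in their sum. It was 25010, 25007, 23124 and 25300 CPM, with knockout replicate 3 again the lowest. The list also held eif4ebp and pabpc genes, tpt1, naca and btf3. Of the 54, 0 passed between genotypes by edgeR (median -0.03), and between numbers 2 passed as higher and 7 as lower, beside 6.99% and 8.16% of all features, the background also for the lists that follow. By direction alone 24 were higher and 30 lower. The initiation factor gene eif4bb was at 56.8 and 49.1 CPM in siblings and 41.7 and 42.3 CPM in knockouts, without overlap (log2 fold change -0.33 ± 0.16, edgeR adjusted p = 1). Between numbers eif4a2, an RNA helicase of initiation, was at 52.2, 112, 46.3 and 108 CPM, higher in replicate 4 (log2 difference 1.16 ± 0.10, edgeR adjusted p = 0.00724). Of 28 genes in the mTOR and S6 kinase pathway list 0 passed between genotypes (median -0.05). Between numbers 3 passed as higher in replicate 4 and 1 as lower (16 higher and 12 lower by direction alone). This list also held myc genes, mxi1 and max. It shared eif4ebp genes with the translation list, and the lower call, eif4ebp2, is in both tallies. The 74 mitochondrial ribosomal protein genes had a genotype median of -0.02 with 0 called, and a median of -0.05 between numbers, where 1 passed as higher and 3 as lower (28 higher and 46 lower by direction alone).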

How the data were processed

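The members, the gene lists and the rule for named genes were chosen with earlier results of these data known. Per the submitters' processing notes, the tools were HISAT2 2.2.1 and DESeq2 1.26.0 and the build GRCz11. Which program counted reads, with which annotation and strand setting, is not stated there or in the labels. Library input was 500 ng RNA, per the labels' protocols. Per the file headers, the authors deposited raw read counts and FPKM per feature and library, and their own log2 fold change, p-value and adjusted p-value for knockout over sibling. The deposited table held 17610 Ensembl genes and 2314 assembled models; 0 models were among the members.

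Counts were used as deposited and fitted over all 19924 features with edgeR 4.0.16 in R 4.3.3 (quasi-likelihood, TMM, filterByExpr, which removed no feature), p adjusted by Benjamini-Hochberg and called under 0.05. Replicate number was tested with genotype as a term. Standard errors of edgeR values were derived as the absolute log2 fold change over the square root of the test's F statistic. The biological coefficient of variation was 32.6% in the genotype fit and 15.4% with replicate number as a term. CPM was scaled with TMM factors. Implied length is count over FPKM, scaled to the library's total. Single values were compared with exact permutation tests (scipy 1.17.1). As alternatives, fits used DESeq2 1.42.0 or limma 3.58.1, total counts or RLE size factors, other filters, a replicate block, and 1 library fewer. The fits were tested on simulated data. The simulation took its spread from the fit with replicate number and put no number effect into the genotype case. It therefore does not test the genotype fit at the spread of these data. Counts within a group differed beyond sampling noise (chi-square over degrees of freedom 90 for siblings, 77.7 for knockouts). The members' lowest count in any library was 218. All 82 identifiers were found in the gene-name table, 73 with the same symbol.

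Named genes were, per subunit, the 5 with the smallest p and the 5 with the largest fold change between genotypes. Also named were the 5 with the smallest p between numbers, the 5 highest and 5 lowest by FPKM, paralogue pairs, and members that are no subunits. The genes rps12, rps13 and others were named after their values were seen. Some genes are not reported here, and 1 member is not drawn in the plots that label every gene.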

Additional observations from a re-analysis of the deposited data

Results flagged for a closer look

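The summed CPM of the 82 genes was lower in the knockout than in the sibling in replicate 3 (log2 difference -0.14) and higher in replicate 4 (0.05), opposite directions under the same contrast. The large subunit gave -0.13 and 0.04, and the small subunit -0.15 and 0.05. Each value sets 1 library against 1. The difference between the numbers (0.18, 0.17 and 0.20 on the log2 scale) was not tested. In the same contrast the summed CPM of the mitochondrially encoded genes gave -0.11 and 0.09, also in opposite directions. All these log2 differences were taken with TMM, and the gap within replicate 3 was smaller on other scales. There the 82 genes summed to 56305 in the sibling and 51161 in the knockout with TMM. With total counts the sums were 56359 and 53563, and by FPKM 59704 and 57518.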

How the results depend on the processing

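Of the genotype comparison, 0 of the 82 genes were called under every alternative run. Over all features the count of 0 became 3 with a replicate block and 19 with DESeq2. The replicate block gave 0 ribosomal protein genes and medians of -0.05, -0.05 and -0.04 for all, large and small subunit genes, and it changed no call of a ribosomal protein gene. The labels do not say that the numbers pair the samples, and 2 pairs are too few to judge it. Without knockout replicate 3 the summed level turned from -0.05 to 0.04, 0.04 and 0.05 (all, large, small); over the libraries left out it ranged from -0.13 to 0.04, -0.13 to 0.04 and -0.14 to 0.05. The log2 difference of the large to small ratio was -0.013 without the 5 highest genes of each subunit. It ranged from -0.011 to 0.010 with a library left out and turned positive without sibling replicate 4 (0.002) or knockout replicate 4 (0.010).

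The median genotype fold change of the 82 genes was -0.13 to 0.04 with a library left out, positive without knockout replicate 3. Of the 13 genes named for genotype, the only ones recomputed singly, 7 changed sign and rpl21 reached 0.00 with a library left out. The ranges were -0.21 to 0.62 for rpl10, -0.29 to 0.00 for rpl21, -0.33 to 0.09 for rpl22l1, -0.22 to 0.02 for rpl34, -0.17 to 0.03 for rps19bp1, -0.33 to 0.11 for rps26, -0.18 to 0.03 for rps27.1 and -0.53 to 0.37 for rps8b. The cause was not tested.

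Between replicate numbers the calls over all features ranged from 880 to 4867 with a library left out, in fits with no genotype term. Of the 82 genes 2 were called with RLE size factors, total counts, a minimum of 5 CPM or without assembled models, and 0 to 16 with a library left out: 16 without sibling replicate 3, 3 without knockout replicate 3, and 0 without either replicate 4 library. Over all features 3172 were called with RLE size factors and 3910 with total counts. Of fewer features tested, 2891 were called with a minimum of 5 CPM and 3626 without assembled models. With a library left out, the count over all features was also highest without sibling replicate 3. Those fits leave a single library in a replicate number, so their counts are not read as a result about these genes. The median of the class was -0.02, -0.02 and -0.03 (all, large, small) by limma on log2(FPKM + 1). It was 0.01 to 0.17 (all) and 0.00 to 0.19 (large) with a library left out. With 2 libraries a group, member standard errors limit which differences could pass. They were 0.14 to 0.39 between genotypes and 0.09 to 0.18 between replicate numbers. Adding the 5 ribosomal protein genes named otherwise, an alternative chosen after seeing the data, changed no direction.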
